A study of Mus musculus with 96 samples.

Results

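Phenobarbital-treated mouse livers held more transcript for the microsomal electron carriers Por and Cyb5a, for the haem-binding P450 partner Pgrmc1 and for the microsomal epoxide hydrolase Ephx1 than control livers, in frozen tissue and in each of 7 fixed forms of the same tissue. The set examined was 9 genes out of 47373 counted, chosen by name for their function, with earlier results of these data known. They were the redox partners of cytochrome P450 enzymes (Por, Cyb5a, Cyb5b, Cyb5r3, Fdx1, Fdxr and Pgrmc1) and the epoxide hydrolases (Ephx1 and Ephx2). Each was found once by its Ensembl identifier, and all 9 passed the low-count filter in every comparison.

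Cytochrome P450 enzymes need electrons to oxidise their substrates. In the endoplasmic reticulum the flavoprotein Por passes them from NADPH, and cytochrome b5 (Cyb5a), itself reduced by Cyb5r3 or by Por, can supply a further electron. In mitochondria the reductase Fdxr and the iron-sulphur protein Fdx1 do the same work. Some P450 products are reactive epoxides, which Ephx1 at the endoplasmic reticulum and Ephx2 in the cytosol open with water into diols. Phenobarbital activates the nuclear receptor CAR in hepatocytes and is the textbook inducer of this drug-metabolising system.

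The livers came from 12 male B6C3F1 mice, a hybrid strain used in toxicology, treated at an age of 10 to 11 weeks. Phenobarbital (PB) was supplied at 600 ppm in the drinking water for 7 days to 6 mice, and the other 6 (Con) had 0 ppm. Pieces of 3 liver lobes had been mixed and frozen, and every fixed portion was cut from that frozen mixture. One portion spent 3 months in 70% ethanol (ethanol), one 18 hours in 10% buffered formalin and after that 3 months in ethanol (18-hour formalin), and one 3 months in formalin (3-month formalin), all then embedded in paraffin. The 3-month formalin blocks gave 4 more kinds of library, in which the RNA was warmed for 30 minutes at 70 °C in TAE buffer (TAE), or the material was incubated for 18 hours at 55 °C without a catalyst (heat only), with an organocatalyst and the AllPrep kit (catalyst AllPrep) or with the catalyst and the PureLink kit (catalyst PureLink). The last kind of portion stayed frozen. Every animal gave 1 library to each of the 8 states, which makes 96 libraries in 16 groups of 6, and the animals are the replicates. The heat-only state also used AllPrep, while the frozen RNA was isolated with RNAzolRT and an RNeasy column, so that preservation and isolation cannot be told apart in comparisons with frozen liver.

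Library totals ran from 1264563 to 18442730 counts with a median of 11913138, and the shallowest library was Con animal 8A in 3-month formalin. As a check of the treatment label, Cyp2b10, the classic CAR target, lay between 1813 and 2736 CPM (counts scaled by TMM to a common library size) in frozen PB livers and between 0.0689 and 0.369 CPM in frozen Con livers. The tissue label was checked with 5 hepatocyte markers (Alb, Apoa1, Ttr, Serpina1c and Cps1), none of them at 0 in any group. Their summed level in frozen liver was 47093 to 80216 CPM in PB animals, with a median of 57199, and 66262 to 94253 CPM in Con animals, with a median of 79382, and the PB median was the lower in all 8 states. Alb made up most of this sum, with a median of 37575 CPM in frozen PB and 57008 CPM in frozen Con livers. None of the 5 was called in frozen liver. The log2 fold changes there were -0.54 for Alb (adjusted p = 0.0572), -0.32 for Ttr, -0.25 for Apoa1, -0.09 for Cps1 and 0.21 for Serpina1c. Alb was called lower in ethanol and catalyst PureLink and Ttr in heat only. Markers of 6 other cell types overlapped between frozen PB and Con livers, with summed medians of 437 and 445 CPM for sinusoidal endothelium, 459 and 430 for Kupffer cells, 473 and 440 for stellate cells, 53.5 and 82.8 for cholangiocytes, 407 and 334 for erythroid cells and 10.5 and 13.2 for adrenal or gonadal steroidogenic cells, of whose markers Cyp11b1 was at 0 in every frozen Con library. The cholangiocyte sum was mostly Spp1, with frozen medians of 44.3 CPM in PB and 69.8 CPM in Con. Sox9 was lower in PB as well, at 4.87 and 7.85 CPM. Krt19 (0.729 and 0.671), Krt7 (0.807 and 0.534) and Epcam (1.05 and 0.647) had the higher median in PB, all at low levels. Among single markers the endothelial Lyve1 was called higher in PB in 3-month formalin, TAE, heat only and catalyst AllPrep, and the Kupffer cell gene Adgre1 in catalyst AllPrep. The part that cell makeup plays in the results was not tested, and in bulk RNA fewer cells of a type and less RNA per cell cannot be told apart.

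RefSeq promoter windows on GRCm38.p6, from 250 bases before to 50 after the annotated start, were at hand for 6 of the 9 genes. Those of the 3 genes among them that were higher in PB in every state are shown 5′ to 3′ on the strand of the gene, since all 3 were higher in PB. Capitals mark GGGCGG, the GC box, or its reverse complement CCGCCC. The windows are chr5:135688895-135689194 on the plus strand for Por, chrX:36597943-36598242 on the plus strand for Pgrmc1 and chr1:181017520-181017819 on the minus strand for Ephx1.
Por: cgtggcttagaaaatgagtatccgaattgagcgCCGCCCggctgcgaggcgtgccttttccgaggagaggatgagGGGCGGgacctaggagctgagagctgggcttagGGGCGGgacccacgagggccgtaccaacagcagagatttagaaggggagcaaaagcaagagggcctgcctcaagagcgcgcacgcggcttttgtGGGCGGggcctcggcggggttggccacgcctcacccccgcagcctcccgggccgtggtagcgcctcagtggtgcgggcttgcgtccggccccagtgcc
Pgrmc1: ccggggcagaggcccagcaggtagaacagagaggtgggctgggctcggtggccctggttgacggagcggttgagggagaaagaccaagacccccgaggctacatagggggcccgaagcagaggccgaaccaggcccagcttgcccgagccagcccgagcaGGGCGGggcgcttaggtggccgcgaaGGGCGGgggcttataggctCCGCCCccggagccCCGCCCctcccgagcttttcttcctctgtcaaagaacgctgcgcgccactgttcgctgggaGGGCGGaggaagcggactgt
Ephx1: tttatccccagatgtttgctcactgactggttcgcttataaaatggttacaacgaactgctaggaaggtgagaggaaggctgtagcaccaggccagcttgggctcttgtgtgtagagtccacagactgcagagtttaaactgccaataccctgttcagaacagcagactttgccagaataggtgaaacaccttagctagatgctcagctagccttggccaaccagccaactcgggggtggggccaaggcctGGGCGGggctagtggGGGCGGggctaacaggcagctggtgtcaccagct

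The Por window holds 4 GC boxes, that of Pgrmc1 holds 5 and that of Ephx1 holds 2. Of the windows not shown, that of Fdxr holds 3, that of Fdx1 holds 1 and that of Cyb5b holds none. The GC box was thus in 5 of the 6 windows, among them that of Fdxr, which was not called for PB in any state. A GC box, on either strand, was found in 35.7% of 32851 promoter windows of the same length. The Por and Pgrmc1 windows are rich in G and C, at 67.3% and 69%, against a median of 52.7% over all windows and 54.3% for Ephx1. The windows not shown held 60.7% for Cyb5b, 56.3% for Fdxr and 52% for Fdx1. Only the Ephx1 window among the 6 held TATAAA, found in 13.6% of windows. CCAAT, in 37.4% of windows, was in those of Cyb5b, Fdxr and Ephx1. The nuclear receptor half-site AGGTCA, in 16.3% of all windows, was in none of the 6, and neither was its direct repeat DR4, in 0.0152%, any match of which also counts as AGGTCA. The variant half-site AGTTCA, in 14% of windows, was in that of Fdx1, and TGACNNNGC, the core of the antioxidant response element, in 12.4% of windows, was in that of Pgrmc1. These searches covered both strands and describe only the letters in these windows. The Por and Ephx1 windows lie inside the gene spans of the GENCODE M21 annotation, chr5:135670033-135735326 for Por (ENSMUSG00000005514) and chr1:180976210-181020904 for Ephx1 (ENSMUSG00000038776).

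Per kilobase of exon (FPKM), the members covered a wide span in frozen liver. Pgrmc1 led at 752 ± 72.5 FPKM in PB and 420 ± 54 FPKM in Con (SD, n = 6 each, as for the FPKM values that follow). In frozen PB liver the order then ran Cyb5a at 345 ± 34.9, Ephx2 at 273 ± 75.1, Ephx1 at 203 ± 34, Cyb5b at 137 ± 12, Cyb5r3 at 99 ± 13.6, Por at 95.7 ± 32.9, Fdx1 at 21.6 ± 2.45 and Fdxr at 5.48 ± 0.398. Ranges of neighbours overlapped from Cyb5a through Cyb5b and between Cyb5r3 and Por. In frozen Con liver the order was Ephx2 at 282 ± 64.6, Cyb5a at 139 ± 21.9, Cyb5b at 118 ± 11, Cyb5r3 at 101 ± 7.09, Ephx1 at 56.3 ± 13.6, Por at 17.3 ± 5.17, Fdx1 at 16.9 ± 1.74 and Fdxr at 5.92 ± 0.483. There the range of Pgrmc1 overlapped that of Ephx2, those of Cyb5a, Cyb5b and Cyb5r3 overlapped in turn, and Por overlapped Fdx1. On this scale Por lay at the level of the b5 reductase Cyb5r3 in PB liver and at that of the mitochondrial ferredoxin Fdx1 in Con liver. In both groups of frozen liver Fdxr was the least abundant member. The scale divides by the merged length of all annotated exons of a gene, so the order between genes depends on the annotation.

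**Figure D1:**
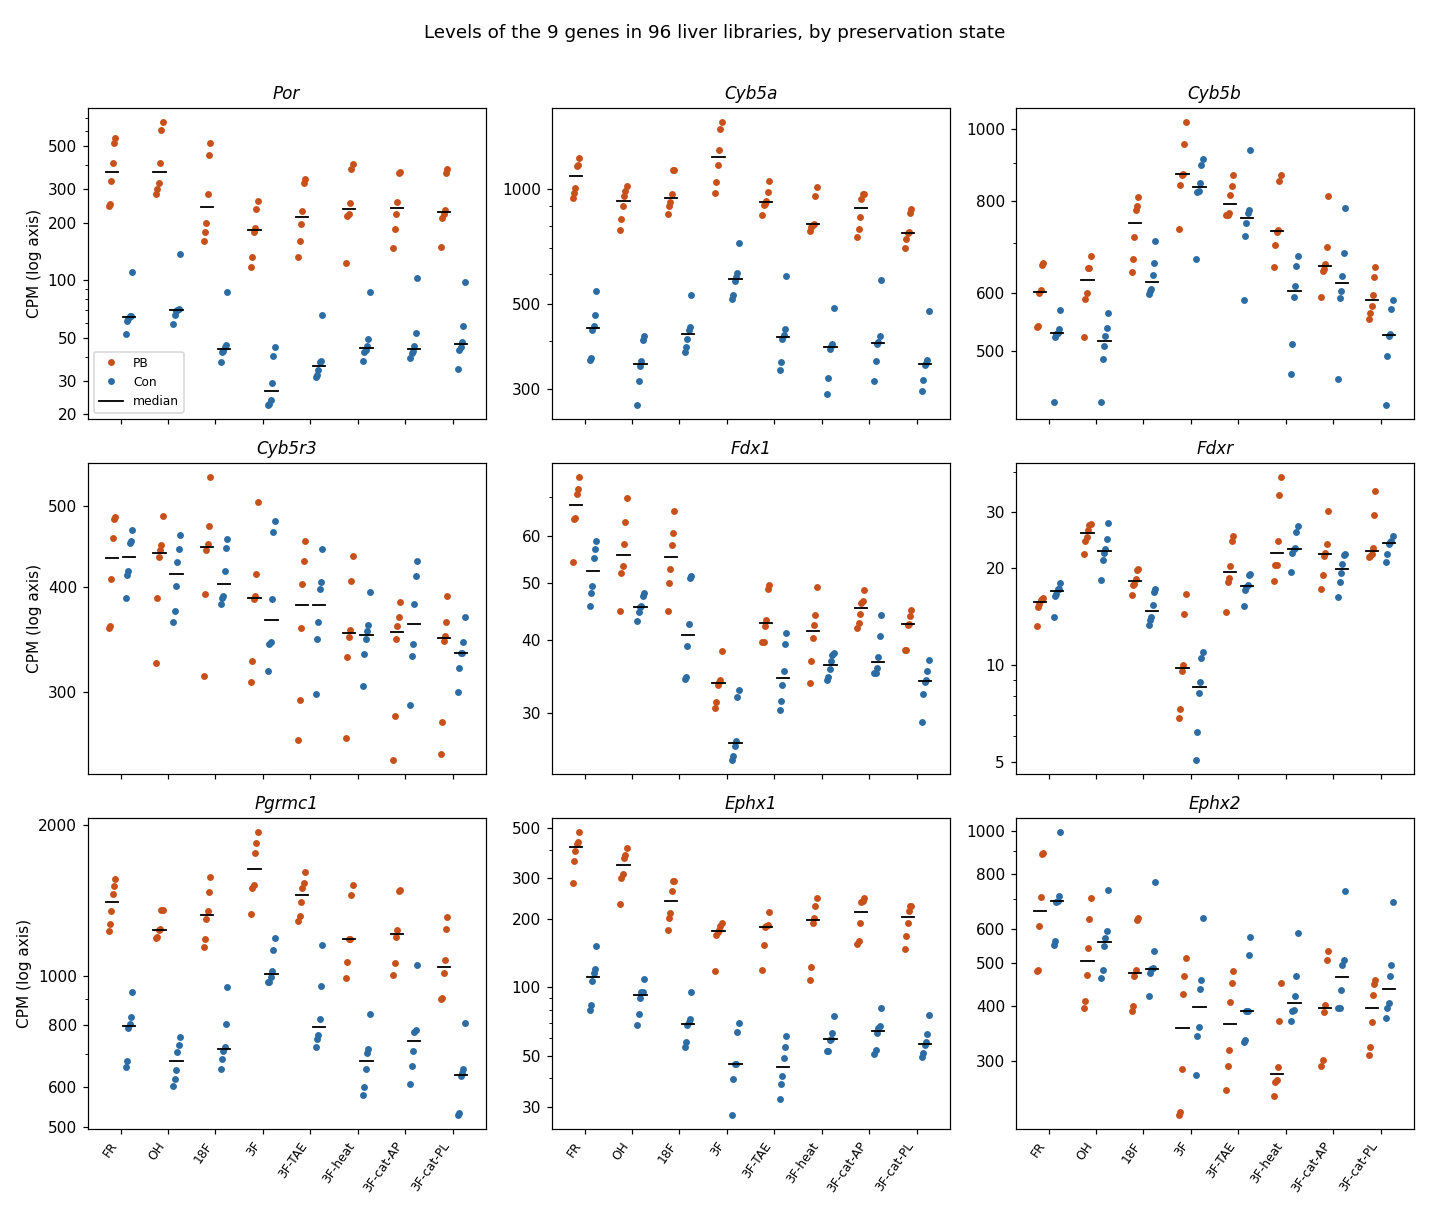
Level of each member in every library, in CPM with TMM scaling on a log axis, by preservation state (FR frozen, OH ethanol, 18F 18-hour formalin, 3F 3-month formalin, then the 4 treated forms of 3F). Orange points are PB animals and blue points Con animals, 6 each, with a black bar at the median. Por, Cyb5a and Ephx1 show no overlap of the groups in any of the 8 states, whereas Cyb5r3 and Ephx2 overlap throughout.

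The question of the first comparison was which members differed between PB and Con within a state. In frozen liver 5 of the 9 members were called higher in PB and none lower, by edgeR's quasi-likelihood test with Benjamini-Hochberg adjustment at 0.05, the test behind every adjusted p given for single genes. Across all 13929 genes tested there, 9.43% were called in either direction and 5.89% higher. The median log2 fold change of the 9 was 0.34 and that of all genes was -0.01.

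Por, the NADPH reductase that serves all microsomal P450s, had the largest difference. Frozen PB livers held 245, 251, 330, 408, 523 and 551 CPM, and frozen Con livers 52.4, 61.1, 63.3, 65.1, 65.2 and 111 CPM. The highest Con library, that of animal 8A, stayed well below the lowest PB library. The log2 fold change was 2.46 ± 0.24 (SE), a 5.5-fold higher level in PB with an adjusted p of 2.21e-05. In the fixed states the log2 fold change was 2.46 ± 0.27 in ethanol, 2.58 ± 0.32 in 18-hour formalin, 2.65 ± 0.22 in 3-month formalin, 2.51 ± 0.25 in TAE, 2.38 ± 0.27 in heat only, 2.25 ± 0.28 in catalyst AllPrep and 2.26 ± 0.27 in catalyst PureLink. Every one of the 8 was called, and the lowest PB library lay above the highest Con library in each state.

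Cyb5a (ENSMUSG00000024646, chr18:84838704-84879871), the microsomal cytochrome b5 that also carries electrons to fatty acid desaturases, ran from 946 to 1203 CPM in frozen PB livers, with a median of 1076, and from 358 to 539 CPM in frozen Con livers, with a median of 433. The groups did not overlap. Its log2 fold change was 1.30 ± 0.11 in frozen liver, 2.46-fold, with an adjusted p of 4.78e-06. Over the 8 states the estimates lay between 1.06 and 1.39 and all were called, without overlap of the groups.

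Pgrmc1 (ENSMUSG00000006373, chrX:36598206-36606079), a membrane protein that binds haem and associates with P450s, lay between 1227 and 1559 CPM in frozen PB livers and between 658 and 928 CPM in frozen Con livers, again apart. The log2 fold change of 0.83 ± 0.10, or 1.78-fold, had an adjusted p of 0.00013. It was called in all 8 states, at 0.66 to 0.90. Only in catalyst AllPrep did the groups overlap, where PB libraries spanned 1006 to 1484 CPM and Con libraries 609 to 1051 CPM.

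Ephx1, which detoxifies epoxides made by microsomal P450s, had 287, 358, 395, 426, 431 and 477 CPM in frozen PB livers, against 79.9, 83.8, 107, 116, 120 and 152 CPM in frozen Con livers. The lowest PB value was that of animal 75C and the highest Con value that of animal 21C. The log2 fold change was 1.84 ± 0.16, or 3.58-fold, with an adjusted p of 6.12e-06. It was called in all 8 states, between 1.60 ± 0.18 in heat only and 1.91 ± 0.14 in ethanol, and no Con library reached a PB library in any state.

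Fdx1 (ENSMUSG00000032051, chr9:51943306-51963556), the ferredoxin of mitochondrial P450s, was slightly higher. Frozen PB livers held 54.3 to 75.5 CPM (median 67.7) and frozen Con livers 45.7 to 58.9 CPM (median 52.3), so the groups overlapped. The log2 fold change was 0.34 ± 0.08, 1.27-fold, with an adjusted p of 0.0186. It was also called in ethanol (0.32 ± 0.09, adjusted p = 0.0407) and in catalyst PureLink (0.32 ± 0.07, adjusted p = 0.0179), where the groups did not overlap and where the call was lost without PB animal 20B (adjusted p = 0.0518). The ethanol call was lost when any 1 animal but PB 75C was left out (adjusted p of up to 0.0847), with library totals in place of TMM (adjusted p = 0.0717) and without the low-count filter (adjusted p = 0.06). In the 5 other states the estimates ran from 0.19 to 0.39 without passing the threshold, and the 18-hour formalin estimate passed with DESeq2 (adjusted p = 0.0466). Its partner Fdxr (ENSMUSG00000018861, chr11:115268024-115277050), which hands electrons to Fdx1, was not called in any state. It had 13.2 to 16.2 CPM in frozen PB and 14.1 to 18 CPM in frozen Con livers, with a log2 fold change of -0.12 ± 0.07 (adjusted p = 0.346), and in the 7 fixed states its estimates lay between 0.12 and 0.34.

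Cyb5b, Cyb5r3 and Ephx2 were not called in any state either. Cyb5b (ENSMUSG00000031924, chr8:107150640-107187471), the b5 of the outer mitochondrial membrane, had 539 to 658 CPM in frozen PB livers and 426 to 568 CPM in frozen Con livers, and its log2 fold changes were above 0 in all 8 states at 0.07 to 0.37. The nearest to the threshold was ethanol with an adjusted p of 0.0556, which DESeq2 put at 0.00912, and DESeq2 also called heat only (0.36, adjusted p = 0.0285, against 0.0972 with edgeR). Cyb5r3 (ENSMUSG00000018042, chr15:83153494-83172592), the reductase that feeds electrons from NADH to b5, lay at 358 to 485 CPM in frozen PB and 388 to 468 CPM in frozen Con livers, and its estimates stayed between -0.13 and 0.07. Ephx2 (ENSMUSG00000022040, chr14:66084374-66124500), which opens epoxides of arachidonic acid, ran from 480 to 892 CPM in frozen PB and from 552 to 995 CPM in frozen Con livers. Its 8 estimates were all below 0, between -0.46 ± 0.16 in heat only (adjusted p = 0.118) and -0.06 ± 0.18 in frozen liver. Con animal 21C was the highest Con library for Ephx2 in all 8 states, and without it the estimates were 0.06 in frozen liver, 0.05 in 18-hour formalin and -0.35 in heat only. Leaving out PB animal 20D made the heat-only value pass (adjusted p = 0.0242). The share of counts from mitochondrially encoded genes in heat only was 10.8% ± 3.52 in PB and 5.82% ± 0.897 in Con (SD, n = 6 each), and its part in the Ephx2 and Cyb5b values there was not tested.

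**Figure D2:**
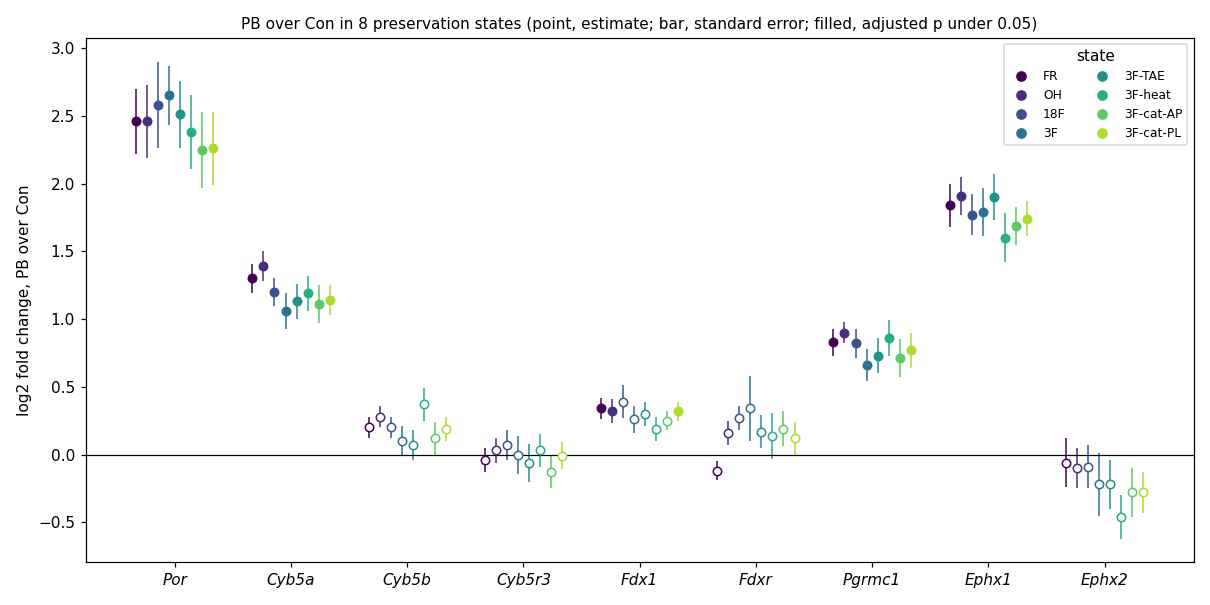
Log2 fold change of PB over Con for each member in each of the 8 states, with bars of 1 standard error either side; filled points passed an adjusted p of 0.05. Por, Cyb5a, Pgrmc1 and Ephx1 are filled in every state and Fdx1 in 3. Fdxr lies at -0.12 in frozen liver and above 0 in the 7 other states.

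By state, 5 of 9 members were called higher in ethanol, where 6.98% of all genes tested were called and 4.82% were called higher. The count was 4 of 9 in 18-hour formalin (4.88% of genes called, 3.45% higher), 4 in 3-month formalin (2.1%, 1.66% higher), 4 in TAE (3.29%, 2.35% higher), 4 in heat only (5.03%, 3.53% higher), 4 in catalyst AllPrep (4.94%, 3.12% higher) and 5 in catalyst PureLink (4.65%, 3.21% higher). No member was called lower in any state. The 4 genes called in all states were Por, Cyb5a, Pgrmc1 and Ephx1. Members with every PB library above every Con library numbered 4 in frozen liver, where 4.13% of genes did so, 4 in ethanol (3.31%), 4 in 18-hour formalin (2.79%), 4 in 3-month formalin (1.45%), 4 in TAE (2.05%), 4 in heat only (2.26%), 3 in catalyst AllPrep (2.25%) and 5 in catalyst PureLink (2.21%). Since the same 12 animals stand behind each state, these counts are not independent of each other. With library totals in place of TMM, 82.5% of all calls in catalyst AllPrep and 82.4% in catalyst PureLink were higher in PB, against 63.2% and 69% with TMM, and Fdx1 was then also called in catalyst AllPrep (0.32, adjusted p = 0.0142). When the 8 libraries of each animal were summed, an alternative chosen after seeing the data, 7.44% of 18478 genes were called and 4.91% higher, among them 5 of the 9 members. The log2 fold changes from the sums were 2.40 ± 0.28 for Por, 1.22 ± 0.11 for Cyb5a, 0.80 ± 0.11 for Pgrmc1, 1.80 ± 0.15 for Ephx1 and 0.31 ± 0.06 for Fdx1 (adjusted p = 0.00898), while Cyb5b at 0.20 ± 0.08 did not pass (adjusted p = 0.163).

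Whether fixation altered the PB effect was tested as an interaction, which sets the PB difference in a preserved state against that in frozen liver. None of the 9 members was called in any of the 7 interaction fits with edgeR, with DESeq2 or with the animal as a block, and the share of all genes called was 0% in all 7 with edgeR. At an unadjusted p under 0.05, the edgeR model fitted across all genes marked 1 member, Fdxr, in ethanol (interaction 0.27 ± 0.11), in 18-hour formalin (0.40 ± 0.11) and in TAE (0.29 ± 0.14), each with an adjusted p of 1, and no member in the 4 other fits. DESeq2 marked Fdxr in ethanol and 18-hour formalin. Of all genes, 170 to 662 were marked in the edgeR fits. The blocked fits marked between 1 and 5 members and between 614 and 1650 genes each and called no member. The 5 were in catalyst AllPrep, where 1628 of 14737 genes were marked. All 7 Fdxr estimates were above 0, at 0.23 to 0.44, and all 7 share the frozen libraries. The Por interactions lay between -0.22 ± 0.38 and 0.19 ± 0.33, and with the animal as a block between -0.18 ± 0.10 in catalyst PureLink and 0.15 ± 0.14 in 3-month formalin.

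The spread between animals was measured on the log2 scale, relative to the Con mean of the same state. State differences shared by the animals are therefore removed. On this measure, for Por and Ephx1 in both groups, animals differed more from each other than the states of an animal did. For Por, Con animal 8A was the highest Con library in 8 of 8 states, on average 0.83 above the Con mean on the log2 scale. Its frozen library held 111 CPM while the other 5 Con libraries held 52.4 to 65.2 CPM. Among PB animals, 20B was the highest in 6 states and 18B the lowest in 7, with animal means of 3.06 and 1.71 above the Con mean. The SD of Por between animals was 0.54 in PB and 0.41 in Con, and that between states within an animal was 0.18 in PB and 0.17 in Con. Without animal 8A the Por log2 fold change was 2.65 in frozen liver and 2.80 in 18-hour formalin. Con animal 21C was the highest Con library in all 8 states for Cyb5a, Pgrmc1, Ephx1 and Ephx2, and PB animal 75C the lowest PB library in 7 states for Ephx1 and for Cyb5r3. For Ephx1 the SD between animals was 0.28 in both groups, and that between states within an animal was 0.19 in PB and 0.11 in Con. The reverse held for Fdx1, at 0.09 between animals in both groups and 0.15 in PB and 0.12 in Con within an animal, and for Fdxr, at 0.20 in PB and 0.08 in Con between animals and 0.26 and 0.19 within. Cyb5b had 0.07 between animals and 0.15 within in PB, but 0.16 and 0.09 in Con.

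**Figure D3:**
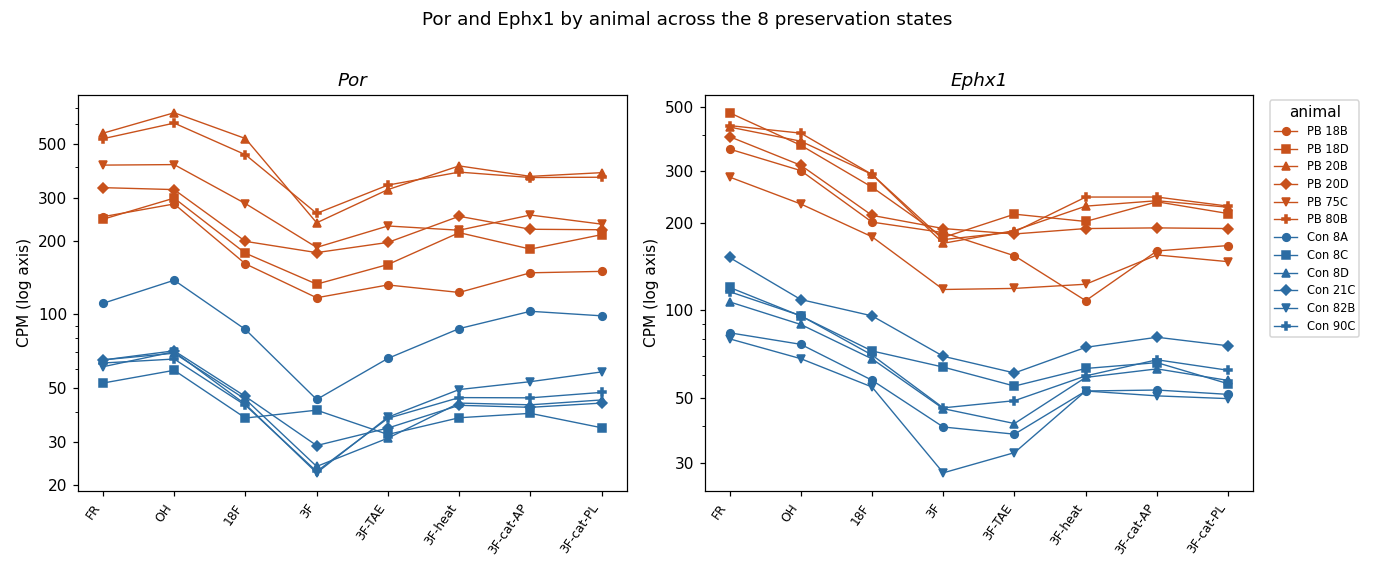
Level of Por (left) and Ephx1 (right) in CPM on a log axis, 1 line per animal over the 8 states, PB in orange and Con in blue. For Por, Con animal 8A is the highest Con line in 8 of 8 states, and for Ephx1 the highest Con line is animal 21C.

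A further question was whether Por and Cyb5a kept pace with the P450s they serve. The levels of 58 genes of the Cyp1, Cyp2 and Cyp3 families summed to 14789 ± 1013 FPKM in frozen PB livers and 5722 ± 712 FPKM in frozen Con livers (SD, n = 6 each). Por amounted to 0.39% to 0.86% of that sum in PB, with a median of 0.643%, and to 0.221% to 0.535% in Con, with a median of 0.281%. The groups overlapped through Con animal 8A. The mean log2 ratio was 1.06 higher in PB, 2.08-fold (exact two-sided permutation test, p = 0.00649, adjusted over 8 states 0.013). In the other states the difference was 1.01 to 1.30, each with an adjusted p of 0.013, and only in 3-month formalin did the groups not overlap. The smallest p that 6 against 6 can give in this test is 0.00216. Without animal 8A, chosen after seeing the data, the difference was 1.21 to 1.43 and the groups were apart in 8 of 8 states. The size of the Por difference turned on what was summed. With all animals, the frozen value was 1.35 without Cyp2b10 and Cyp3a11 and 1.13 with the Cyp4 family added (exact permutation adjusted p = 0.00693 and 0.0108). With CPM not divided by length it was 0.80 (exact permutation adjusted p = 0.0281), and 3-month formalin overlapped too.

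Cyb5a behaved unlike Por on this measure. It amounted to 2.19% to 2.44% of the P450 sum in frozen PB livers and 2.26% to 2.55% in frozen Con livers, a log2 difference of -0.06 (exact permutation test, adjusted p = 0.245). TAE was the only state past the threshold, at -0.25 with an exact adjusted p of 0.0173 and all PB libraries below all Con libraries. This ratio turns on which P450s are summed. Without Cyp2b10 and Cyp3a11, the P450s known as main PB targets in mouse liver, the frozen difference was 0.24 (exact permutation adjusted p = 0.00577), and with CPM not divided by length it was -0.32 (exact permutation adjusted p = 0.00289). The TAE call was lost without Cyp2b10 and Cyp3a11 (0.06, exact permutation adjusted p = 0.539) and with the Cyp4 family added (-0.16, exact permutation adjusted p = 0.312). No direction is therefore given for Cyb5a per P450.

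**Figure D4:**
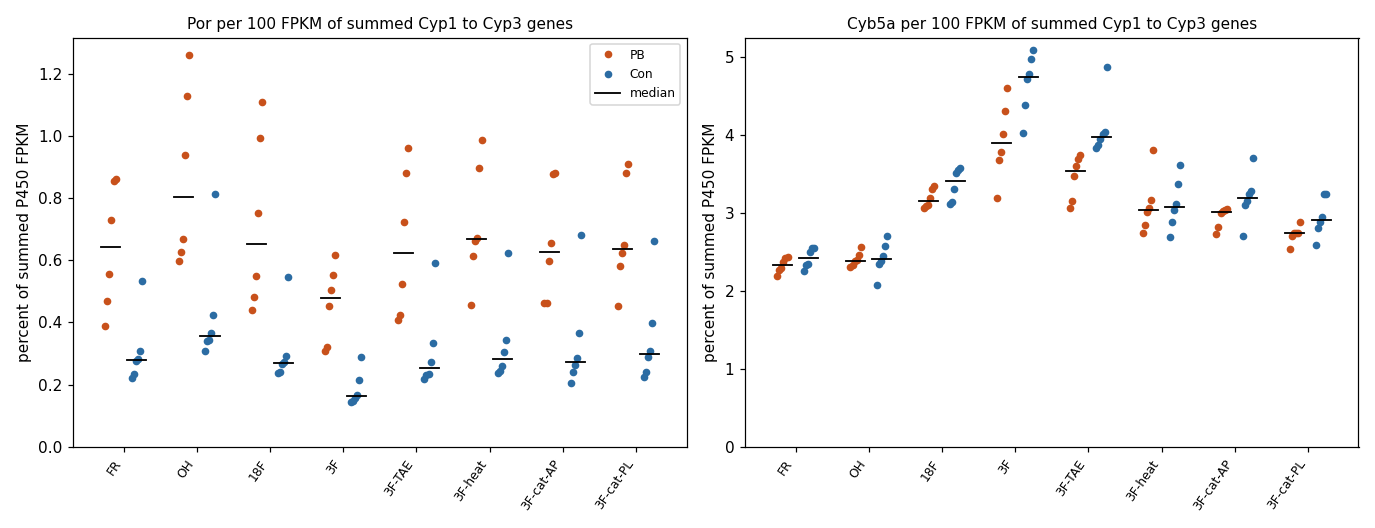
Por (left) and Cyb5a (right) as a percent of the summed FPKM of 58 microsomal P450 genes in each library, on an axis from 0, PB in orange and Con in blue with black bars at the medians. For Por in frozen liver the PB median is 0.643% and the Con median 0.281%, while for Cyb5a the groups overlap in all states but TAE.

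Genes that work with the members were read from lists by role. Of 13 further redox carriers and flavoprotein reductases 12 were tested, and none was called in any state. In frozen liver the unadjusted p was under 0.05 for 1 of them, Nenf, named after its value was seen. Marc2 and Marc1, amidoxime-reducing enzymes fed by the mitochondrial b5 Cyb5b, had log2 fold changes of -0.03 ± 0.08 and -0.09 ± 0.08. The median of this list in frozen liver was 0.07. Of 3 other epoxide hydrolases only Lta4h, which makes leukotriene B4, was expressed enough to test, at 0.07 ± 0.05. Among 6 mitochondrial P450s only the bile acid enzyme Cyp27a1 was tested, with 381 to 475 CPM in frozen PB and 400 to 440 CPM in frozen Con livers and a log2 fold change of 0.04 ± 0.06. The other electron acceptors of Por, in haem breakdown and sterol synthesis, were not called (0 of 5 in each state, and 0 of 5 at an unadjusted p under 0.05 in frozen liver), with Cyp51 at 0.05 ± 0.16 and Dhcr7 at -0.07 ± 0.17.

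Of 8 acceptors of cytochrome b5 tested, 2 were lower in frozen PB liver and none higher, with a list median of -0.01. Among all 13929 genes tested there, 492 were called lower. Scd1, the stearoyl-CoA desaturase, had 1061 to 9024 CPM in frozen PB and 6831 to 17148 CPM in frozen Con livers, overlapping, with a log2 fold change of -1.33 ± 0.37 (adjusted p = 0.0376). Fads2, the first desaturase of polyunsaturated fatty acid synthesis, had 245 to 359 CPM in PB and 409 to 496 CPM in Con, without overlap, at -0.69 ± 0.09 (adjusted p = 0.000319). Fads2 was called lower in all 8 states and Scd1 in frozen, ethanol and catalyst AllPrep. Sc5d at 0.16 ± 0.10 and Fads1 at -0.10 ± 0.10 were not called.

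In iron-sulphur cluster assembly, on which Fdx1 depends, 1 of 8 genes was called in frozen liver, where 9.43% of all genes tested were. It was the mitochondrial glutaredoxin Glrx5 at 0.48 ± 0.09 (adjusted p = 0.00448). Glrx5 was also called in ethanol and in 18-hour formalin. Nfs1 and Iscu, the sulphur donor enzyme and the scaffold, were at -0.06 ± 0.05 and 0.05 ± 0.06. None of 3 flavin supply genes was called in any state, with Rfk, the riboflavin kinase, at 0.15 ± 0.05 (adjusted p = 0.107, and 1 of 3 at an unadjusted p under 0.05) and Flad1 at 0.02 ± 0.07. Of 7 arachidonate epoxygenases, whose products Ephx2 hydrolyses, only Cyp2c29 was called, 21.2-fold higher in frozen PB liver at 4.41 ± 0.35. It was called higher in each of the 8 states. Cyp2j5 at 0.02 ± 0.07 and Cyp2j6 at -0.01 ± 0.08 were not called. All 6 CAR markers were called higher in each state, with Cyp2c55 at 8.74 ± 0.26 and Gstm3 at 6.07 ± 0.34 in frozen liver.

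The second comparison asked how the members' levels differed between preservation states, with treatment as a covariate and 12 libraries on each side. The 7 comparisons with frozen share the frozen libraries. Against frozen liver, ethanol had 1 member called higher and 2 lower, where 17% of all genes tested were called higher and 15.8% lower. The counts were 1 and 3 in 18-hour formalin (20.5% and 20.6% of genes), 3 and 5 in 3-month formalin (29.6% and 30.7%), 2 and 5 in TAE (31.6% and 27.4%), 2 and 7 in heat only (28.4% and 28.6%), 2 and 5 in catalyst AllPrep (27.8% and 22.6%), and 1 and 7 in catalyst PureLink (31.5% and 27.7%). With the animal as a block, ethanol had 7 members called in either direction, where 53% of genes were. In the other comparisons with frozen liver the blocked fit called 57.9% to 71.2% of all genes. With library totals in place of TMM the share of all calls that were higher was 78% to 86.2% in the 6 comparisons other than 3-month formalin, against 49.8% to 55.2% with TMM, and in these 6 the median of all genes moved by 0.09 to 0.26, so that directions below are relative to the bulk of genes in the library. The share of counts from mitochondrially encoded genes in 3-month formalin was 10.4% ± 3 in PB and 9.43% ± 1.77 in Con, against 2.7% ± 0.485 in PB and 2.43% ± 0.284 in Con in frozen liver (SD, n = 6 each). Its group means were 4.32% to 10.8% in the 4 treated forms and 2.52% to 2.91% in ethanol and 18-hour formalin. Genes with at least 1 count numbered 14006 to 18567 per library in 3-month formalin, 18913 to 21347 in the 6 other preserved states and 19797 to 20709 in frozen liver. The part of these in the state differences was not tested.

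The microsomal genes that rose with PB did not share a direction across states. Por lay at 22.5 to 259 CPM over the 12 libraries of 3-month formalin (median 80.9) and at 52.4 to 551 CPM over those of frozen liver (median 178), and every animal was lower. The log2 difference was -1.14 ± 0.17 (adjusted p = 1.18e-06). Por was also called lower in TAE (-0.75), heat only (-0.51), catalyst AllPrep (-0.46) and catalyst PureLink (-0.46), the last 3 of which were not called with library totals (-0.25, -0.25 and -0.19). In ethanol and 18-hour formalin Por was not called at 0.20 ± 0.18 and -0.42 ± 0.20, whereas the fit with the animal as a block called both, at 0.18 (adjusted p = 4.82e-06) and -0.46 (adjusted p = 1.57e-10). Ephx1 was lower than in frozen liver in all states but ethanol, with log2 differences of -0.69 ± 0.11 in 18-hour formalin, -1.19 ± 0.12 in 3-month formalin, -1.20 ± 0.12 in TAE, -0.85 ± 0.11 in catalyst AllPrep and -0.95 ± 0.10 in catalyst PureLink, and in heat only its level was 0.5 times that of frozen liver. In ethanol it was -0.25 ± 0.11, uncalled unless the animal was a block (-0.24, adjusted p = 1.61e-08).

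Cyb5a and Pgrmc1, both abundant, were higher in 3-month formalin than in frozen liver, at 0.32 ± 0.09 and 0.33 ± 0.08. In catalyst PureLink both were lower, at -0.35 ± 0.08 and -0.34 ± 0.08, which library totals reduced to -0.09 and -0.07 without a call. Heat only also had both lower (-0.28 ± 0.08 and -0.20 ± 0.08), and with library totals the Cyb5a value was -0.02 and that of Pgrmc1 turned to 0.05, neither of them called, and the Pgrmc1 call was also lost without the low-count filter (adjusted p = 0.0775). Ethanol had Cyb5a lower at -0.25 ± 0.07 (-0.16 and uncalled with library totals). With the animal as a block Cyb5a was also called in 18-hour formalin (-0.08), TAE (-0.10) and catalyst AllPrep (-0.18), and Pgrmc1 in ethanol (-0.15) and TAE (0.11). That fit called 57.9% of all genes in 18-hour formalin, 68.9% in TAE, 63.2% in catalyst AllPrep and 53% in ethanol. Pgrmc1 in ethanol also passed with DESeq2 and with RLE scaling (adjusted p = 0.0257 and 0.0478), and in TAE with library totals (0.34).

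The mitochondrial carriers differed from each other. Fdx1 was lower than in frozen liver in all 7 states, from -0.19 ± 0.06 in ethanol to -0.95 ± 0.06 in 3-month formalin, where its libraries held 25 to 38.3 CPM against 45.7 to 75.5 CPM in frozen liver and did not overlap. With library totals the ethanol (-0.10) and 18-hour formalin (-0.11) values were not called. Fdxr was higher in 5 of 7 states, at 0.62 ± 0.06 in ethanol, 0.26 ± 0.08 in TAE, 0.61 ± 0.10 in heat only, 0.41 ± 0.08 in catalyst AllPrep and 0.62 ± 0.07 in catalyst PureLink. In 3-month formalin Fdxr was lower at -0.71 ± 0.13, with 5.08 to 16.7 CPM against 13.2 to 18 CPM in frozen liver. The lowest of its counts there was 6, in Con animal 8A, so its value in that library rests on few reads. Cyb5b, the mitochondrial b5, was higher in 18-hour formalin (0.29 ± 0.05), 3-month formalin (0.61 ± 0.06), TAE (0.50 ± 0.06), heat only (0.24 ± 0.07) and catalyst AllPrep (0.24 ± 0.07). With library totals Cyb5b was also called higher in catalyst PureLink (0.27) and Fdxr in 18-hour formalin (0.24).

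The remaining members moved down or were not called. Ephx2 was lower in 6 states, with log2 differences of -0.43 in 18-hour formalin (-0.24 and uncalled with library totals), -0.84 in 3-month formalin, -0.78 in TAE, -0.90 in heat only, -0.60 in catalyst AllPrep and -0.68 in catalyst PureLink. In ethanol it was -0.31 ± 0.12 with an adjusted p of 0.0503, and DESeq2 (0.0307), RLE scaling (0.0446) and the block (4.46e-11) put it past the threshold. Cyb5r3 was lower in TAE (-0.19 ± 0.08), heat only (-0.29 ± 0.07), catalyst AllPrep (-0.28 ± 0.08) and catalyst PureLink (-0.36 ± 0.07). Library totals ended all 4 of these Cyb5r3 calls, with values of 0.03, -0.04, -0.08 and -0.10, the first turned in sign, and the TAE call was also lost without the low-count filter (adjusted p = 0.0555). The blocked fit also called Cyb5r3 lower in 3-month formalin (-0.15).

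**Figure D5:**
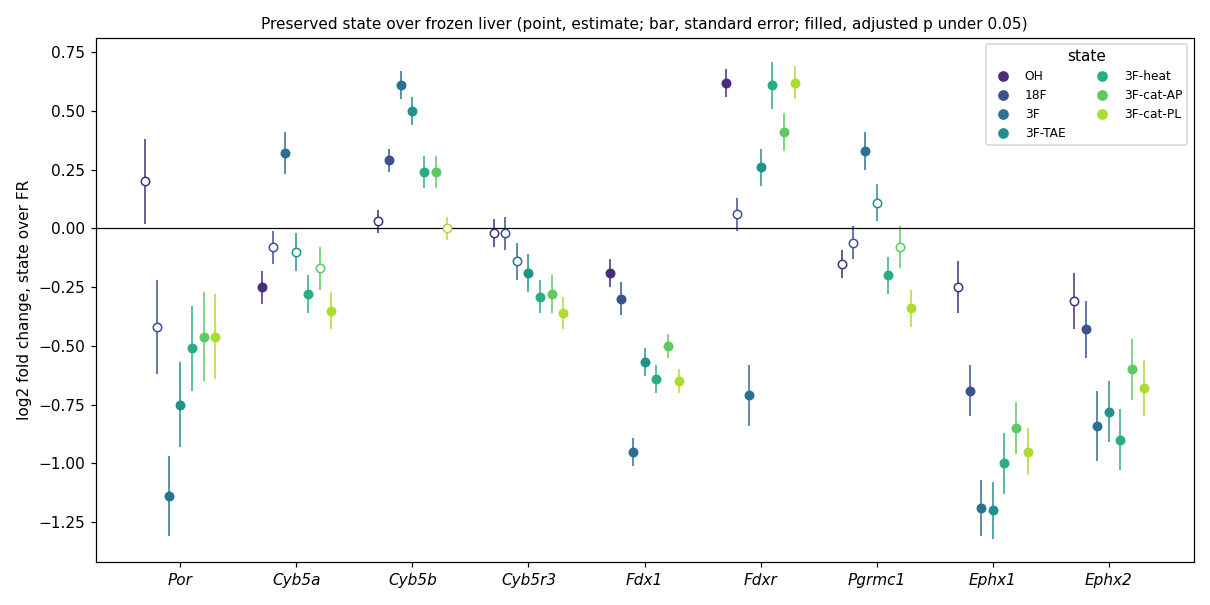
Log2 difference of each preserved state over frozen liver for the 9 members, with bars of 1 standard error either side; filled points passed an adjusted p of 0.05. Fdx1 lies below 0 throughout and Cyb5b at or above 0, and Fdxr lies above 0 in every state but 3-month formalin, where it is at -0.71.

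The fixatives were also set against each other. Against ethanol, 18-hour formalin had 2 members higher and 3 lower (21.5% and 20.9% of genes). Those were Cyb5a at 0.18 ± 0.07 and Cyb5b at 0.28 ± 0.05, and Por at -0.60 ± 0.21, Fdxr at -0.54 ± 0.06 and Ephx1 at -0.42 ± 0.11. The Cyb5a call was lost without the low-count filter (adjusted p = 0.111). With the block, which called 58.6% of all genes, Pgrmc1 (0.10) and Ephx2 (-0.10) were called as well. Against 18-hour formalin, 3-month formalin had 3 higher and 5 lower (22.3% and 23% of genes), Cyb5a, Cyb5b and Pgrmc1 at 0.40, 0.33 and 0.39, and Por, Fdx1, Fdxr, Ephx1 and Ephx2 at -0.72, -0.64, -0.77, -0.50 and -0.40. The block, which called 53.9% of all genes, added Cyb5r3 at -0.13, and library totals put Cyb5r3 at -0.24, called as well. With library totals the share of all calls that were higher was 69.1% in the comparison with ethanol and 29.1% in that with 18-hour formalin, against 50.7% and 49.1% with TMM.

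The treatments applied to 3-month formalin material were set against untreated 3-month formalin, which served all 4 comparisons. For the 3-month formalin and TAE libraries no isolation kit is given in the labels used here, and kit and incubation cannot be told apart in the comparisons of heat only and the catalyst forms with 3-month formalin. TAE had 2 members higher and 2 lower (7.89% and 9.42% of genes), heat only 3 and 3 (23.5% and 23.3%), catalyst AllPrep 4 and 3 (23.8% and 23.6%), and catalyst PureLink 3 and 4 (30.8% and 29%). With the animal as a block the share of all genes called was 34.5% in TAE, 55.9% in heat only, 57.8% in catalyst AllPrep and 66.7% in catalyst PureLink. Fdxr was higher by 0.96 ± 0.13 in TAE, 1.35 ± 0.15 in heat only, 1.11 ± 0.13 in catalyst AllPrep and 1.33 ± 0.13 in catalyst PureLink, in 12 of 12 animals each time, with a median of 18.4 CPM in TAE, 23 in heat only, 21.2 in catalyst AllPrep and 23.5 in catalyst PureLink against 9.21 CPM in 3-month formalin. Fdx1 was higher in all 4 as well, by 0.29 to 0.42. Por was called higher in heat only (0.65 ± 0.18), catalyst AllPrep (0.66 ± 0.18) and catalyst PureLink (0.68 ± 0.18), and at 0.37 ± 0.17 in TAE only with the block (0.32, adjusted p = 0.000282) or with library totals (0.55, adjusted p = 0.0143). Cyb5a was lower in all 4, at -0.43 ± 0.09, -0.57 ± 0.09, -0.51 ± 0.09 and -0.67 ± 0.08 in the same order, and so was Pgrmc1, at -0.23 ± 0.08, -0.51 ± 0.09, -0.43 ± 0.09 and -0.66 ± 0.08. The Pgrmc1 call in TAE was lost with library totals (-0.06), without the low-count filter (adjusted p = 0.143) and without the shallow 8A library (adjusted p = 0.0569).

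Cyb5b was lower than in 3-month formalin in heat only (-0.36 ± 0.08), catalyst AllPrep (-0.40 ± 0.08) and catalyst PureLink (-0.61 ± 0.07). Ephx1 was called only in catalyst AllPrep (0.32 ± 0.12), and the block called it in catalyst PureLink (0.26), as library totals did in heat only (0.38) and catalyst PureLink (0.44). Cyb5r3 was called lower only in catalyst PureLink (-0.22 ± 0.09), a call that was lost with library totals (-0.02) and without the low-count filter (adjusted p = 0.0719), and the block added heat only (-0.13) and catalyst AllPrep (-0.16). Ephx2 was not called in any of the 4 in the fit without the block, and the block called it in catalyst AllPrep (0.23) and catalyst PureLink (0.19), as library totals did (0.37 and 0.35). In these 4 comparisons the share of all calls that were higher was 72.1% to 91.6% with library totals, against 45.6% to 51.5% with TMM, and the median of all genes moved by 0.16 to 0.20.

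The catalyst itself was tested by catalyst AllPrep against heat only, which share kit and incubation. No member was called (0.927% of genes were), with 2 of 9 at an unadjusted p under 0.05 by edgeR (1849 of 13807 genes) and by DESeq2 (2079 of 28716 genes), Fdxr at -0.23 ± 0.11 and Ephx2 at 0.27 ± 0.13, and none called with DESeq2. With the animal as a block 14% of genes and 3 members were called, Fdxr at -0.22 (adjusted p = 0.0243), Ephx1 at 0.14 (adjusted p = 0.0424) and Ephx2 at 0.25 (adjusted p = 0.0031). Ephx2 was higher in 12 of 12 animals. Between the kits, catalyst PureLink against catalyst AllPrep, no member was called either (2.39% of genes were), with 4 of 9 at an unadjusted p under 0.05 by edgeR (3434 of 14124 genes) and 5 by DESeq2 (3884 of 29141 genes), which called 1, Cyb5b (-0.23, adjusted p = 0.0409). The blocked fit called 37% of genes and 6 members, Cyb5a at -0.16, Cyb5b at -0.21, Fdx1 at -0.14, Fdxr at 0.22, Pgrmc1 at -0.24 and Ephx1 at -0.08. With library totals the share of all calls that were higher was 47.2% for the catalyst and 58.3% for the kit, against 70.3% and 46% with TMM.

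Over the 96 libraries, with each gene's mean in a state removed, the genes whose levels ran most like a member's were sought among 10076 genes with a mean of at least 5 CPM in frozen liver. These correlations are a description, since libraries share animals and the PB difference enters every value. Por ran most like Akr1b7, Ugt2b35 and Ugt2b34 (r = 0.95 each), and with the PB and Con means also removed r was 0.67, 0.61 and 0.52. Cyb5a ran like Gstm1 (0.99), Cyp3a11 (0.99) and Cyp2c54 (0.98), with 0.83, 0.86 and 0.82 once treatment means were removed. Ephx1 ran like Ces2a, Cyp2a5 and Gstm1 (0.98 each) and Pgrmc1 like Akr1d1 (0.97), Creg1 and Aldh1a1 (0.96 each). The members not called for PB ran with other genes, Ephx2 with Acaa2 (0.93), Acat1 and Retsat (0.92 each), Cyb5r3 with Acsl5 (0.85), Khk and Eno1 (0.84 each), Cyb5b with Srr (0.85), Pcbd1 and Rnf181 (0.84 each), and Fdxr with Mlxipl (0.77), Numa1 (0.75) and Tymp (0.74). Fdx1 ran with Mettl7a1 (0.83), Idh2 and Ugt2b5 (0.79 each).

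Among the members themselves Cyb5a and Pgrmc1 ran together, at r = 0.98 with state means removed and 0.89 with treatment means removed too. Por and Cyb5a had r = 0.89, which became 0.02 within treatment groups, and Por and Ephx1 had 0.90, which became 0.12. Por and Ephx2 had -0.47 and -0.51 by these measures, and Fdx1 and Fdxr had 0.35 and 0.21.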

How the data were processed

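Raw counts per gene for 96 libraries were used as deposited by the authors in 1 table of 47373 genes and 92 spike-in lines. The libraries were strand-specific and ribosomal RNA was depleted, per the labels' protocols. The submitters' processing notes list CASAVA, STAR 2.5, edgeR and, as genome builds, mm10 and GRCm38. How reads were assigned to genes (tool, annotation, strand) is not given in the sources used here. The spike-in lines, 110 counts in all, were left out. Of the genes, 46954 were matched by identifier to GENCODE M21, and the 419 others held at most 0.0502% of a library. A library with few counts, such as the 1264563 of the shallowest, gives less precise values than one near the median of 11913138, and multi-mapped or overlapping reads can have been split by the authors' counting. On the opposite strand Por and Cyb5a overlap genes with few counts and no shared exon, and Cyb5r3 overlaps an antisense gene that was not among those counted. On the same strand Ephx1 shares exon sequence with an unprocessed pseudogene that held 0 counts, so Ephx1 counts over those exons are uncertain.

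Each PB and Con comparison was fitted within its 12 libraries with edgeR 4.0.16 in R 4.3.3 (TMM scaling, genes kept by filterByExpr at 10 counts, quasi-likelihood test, Benjamini-Hochberg adjustment over all genes at 0.05). Standard errors were taken as the absolute log2 estimate over the root of the F statistic. The 15 state comparisons added treatment as a covariate and the 7 interaction fits set a state against frozen liver. CPM used TMM factors over all 96 libraries and FPKM divided CPM by the exon length in kilobases. Likeness used log2 of CPM with 0.1 added. The scripts were tested on simulated data.

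The same animal gave 1 library to each state, so libraries of the same animal are paired by design. Over 10191 genes, 336 of 336 pairs of libraries from one animal had deviations from their group means correlated above 0.1, with a median of 0.669, while libraries of different animals had a median of -0.114. Taking deviations from a shared group mean pulls the latter value negative. The animal was therefore also fitted as a replicate block.

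Alternatives were DESeq2 1.42.0, RLE scaling, library totals in place of TMM, no low-count filter, each animal left out and the block. Leaving out the shallow 3-month formalin library of Con animal 8A, summing the libraries of an animal and the P450 ratio without animal 8A were chosen after seeing the data. The 9 members and the gene lists were chosen with earlier results of these data known. Named besides the members were, per list, up to 3 called genes with the largest change in frozen liver and up to 2 uncalled genes with the highest level, and the 3 genes most like each member.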

Additional observations from a re-analysis of the deposited data

Results flagged for a closer look

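In 17 of 144 groups of 6 libraries 1 library stood apart from the other 5, with a gap past Dixon's 95% critical value, and chance alone marks about 1 group in 20. For Por, Con animal 8A was the high library in 7 states. It held 111 CPM in frozen liver while the other Con libraries held 52.4 to 65.2, 138 CPM in ethanol with the others at 59.1 to 71, 86.8 CPM in 18-hour formalin with the others at 37.7 to 46.2, 66.1 CPM in TAE with the others at 31.2 to 38, 87.5 CPM in heat only with the others at 37.8 to 49.3, 103 CPM in catalyst AllPrep with the others at 39.4 to 53.1, and 98.7 CPM in catalyst PureLink with the others at 34.4 to 58.2. These 7 libraries come from 1 animal and are not independent.

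Con animal 8A was the low library for Cyb5b in frozen liver, at 426 CPM with the others at 523 to 568, and in 3-month formalin, at 667 CPM with the others at 822 to 910. Con animal 21C was the high library for Cyb5a in TAE (593 CPM, the others 336 to 429), catalyst AllPrep (578 CPM, the others 315 to 412) and catalyst PureLink (480 CPM, the others 297 to 358). It was also the high library for Ephx2 in frozen liver (995 CPM, the others 552 to 713), 18-hour formalin (767 CPM, the others 422 to 533) and catalyst AllPrep (730 CPM, the others 396 to 510).

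Only 2 PB libraries stood apart. Animal 20D was low for Fdxr in frozen liver, at 13.2 CPM with the others at 15.2 to 16.2. Animal 75C was low for Ephx1 in 3-month formalin, at 118 CPM with the others at 170 to 191.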

How the results depend on the processing

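In PB against Con, Por, Cyb5a, Pgrmc1 and Ephx1 kept their call in all 8 states under every alternative run, including leaving out each animal in turn. In those omissions the number of members called lay between 5 and 5 in frozen liver, between 4 and 4 in 3-month formalin and TAE, and between 4 and 5 in the other states. The number of genes called was 872 to 1487 in frozen liver, 650 to 1098 in ethanol, 425 to 796 in 18-hour formalin, 190 to 275 in 3-month formalin, 334 to 493 in TAE, 417 to 776 in heat only, 508 to 768 in catalyst AllPrep and 456 to 709 in catalyst PureLink. The lowest counts came without PB animal 80B (frozen, 18-hour formalin) and without Con animal 8A (heat only). DESeq2 called 1047 genes in 18-hour formalin (665 with edgeR), 494 in 3-month formalin (274), 769 in TAE (455), 1093 in heat only (688), 1128 in catalyst AllPrep (688) and 1019 in catalyst PureLink (665).

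With the animal as a replicate block 7 members and 7370 genes were called in ethanol against frozen liver (3 and 4561 without), and DESeq2 and RLE scaling called 5 members and library totals 1. Library totals called 5 members in heat only (9) and 5 in catalyst PureLink (8) against frozen, where genes called higher and lower numbered 7345 and 1919 in heat only (3940 and 3972 with TMM) and 8170 and 1732 in catalyst PureLink (4449 and 3914), and turned Cyb5r3 in TAE to 0.03 and Pgrmc1 in heat only to 0.05. In TAE against 3-month formalin the block called 4584 genes and library totals 4413 (2302). In catalyst AllPrep against heat only the block called 3 members (0) and 1935 genes, DESeq2 366 and the unfiltered fit 39 (128). In catalyst PureLink against catalyst AllPrep the block called 6 members and DESeq2 1 (0), and genes numbered 5230 with the block, 979 with DESeq2, 199 with library totals and 88 unfiltered (337). The blocked interaction in heat only called 9 genes (0). The block changed no call of a member from significant to not.

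Cyb5a per P450 without Cyp2b10 and Cyp3a11 was 0.24 in frozen liver, 0.27 in ethanol, 0.21 in 18-hour formalin, 0.03 in 3-month formalin, 0.06 in TAE, 0.28 in heat only, and 0.17 in catalyst AllPrep and catalyst PureLink, and was not past the threshold in 3-month formalin, TAE and catalyst AllPrep. With CPM not divided by length it was -0.32 in frozen liver, -0.24 in ethanol, -0.33 in 18-hour formalin, -0.50 in 3-month formalin, -0.49 in TAE, -0.24 in heat only, -0.36 in catalyst AllPrep and -0.35 in catalyst PureLink. With the Cyp4 family added, TAE was -0.16 and no longer past the threshold. Without animal 8A catalyst AllPrep was -0.16 and catalyst PureLink -0.15, both then past the threshold. The causes were not tested. Among single members, 36 estimates that were not called in either setting changed sign. Depth limits Fdxr most, whose lowest count was 6.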
